A study of Homo sapiens with 6 samples.

Results

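The AP-1 subunit genes and classical immediate early genes were examined here as a group of 10 genes, Jun, Junb, Jund, Fos, Fosb, Fosl1, Fosl2, Atf3, Egr1 and Ier2. They were chosen by gene symbol, and all 10 were found among the 22989 genes of the count table. RNA-seq had been performed on 3 libraries labelled LINC00115 KD and 3 labelled WT, to ask how the long non-coding RNA LINC00115 acts. All are described as MDA-MB-231 BCSC selected for PTX resistance, an origin that the mouse-style gene names and some marker counts given below leave uncertain. The MDA-MB-231 line comes from a human breast tumour without hormone receptors or HER2, PTX is paclitaxel, and BCSC are breast cancer stem-like cells, which the study sorted by high aldehyde dehydrogenase activity. The KD cells express a short hairpin RNA (shRNA) against LINC00115, delivered by a vector and selected with puromycin. The KD samples are titled as replicates and carry the names sh115-1, sh115-2 and sh115-3, while the study's text gives a single hairpin, sh115-2, for this experiment. It is not stated whether the libraries came from separate cultures, so that p-values measure the spread between these libraries, which may be technical. The study's text describes a control hairpin, shC, where the labels write WT, and the labels name no other agent or allele.

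AP-1 is a dimer of basic leucine zipper (bZIP) proteins. A JUN protein pairs with another JUN protein, with a FOS protein or with an ATF family protein such as ATF3, and FOS proteins need a JUN partner for stable binding to DNA. Immediate early genes are transcribed within minutes of a growth factor or stress signal without new protein synthesis, through MAP kinases that act on SRF with its ETS partners at CArG boxes, on CREB/ATF factors at cAMP response elements, and on JUN itself. In mesenchymal breast cancer cells the FOS protein FRA1, the product of FOSL1, is known as a prominent AP-1 subunit.

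The control libraries held 37142290 to 37656117 counts and the KD libraries 36979221 to 38799331. Within a group, the chi-square per degree of freedom between 2 libraries was 3.94 to 7.96, so that no library was a copy of another. The table names its genes in the style of mouse symbols, 4648 of them Gm names and 1135 Rik names. As written, 16 of its 22989 symbols equal a human symbol, and apart from case 14422 do, although the samples are labelled human. It has 0 genes named LINC00115. The knockdown itself could therefore not be checked, and each direction below rests on the labels. All 10 symbols examined equal a human symbol apart from case. Of 18 genes used to check the label of a triple-negative, mesenchymal, ALDH-positive line, Vim had the most, with 126885 counts or more per library, while 10 never reached 100 counts in any library. Among those 10 were Epcam, Cdh1 and Pgr, which such a line lacks or holds at a low level, but also the mesenchymal factor genes Zeb1 and Snai2 and the aldehyde dehydrogenase genes Aldh1a1 and Aldh1a3. Some genes low in such a line were higher in KD libraries, with Cdh1 at 1 to 3 counts in WT and 22 to 31 in KD, Esr1 at 24 to 29 and 82 to 105, and Erbb2 at 592 to 689 and 1029 to 1061. Of the 11 genes of this list that were tested, KD lay above WT without overlap for 8 and below for 1. Among all genes tested it did so for 37.8% each way. Those above also included Vim, Axl, Krt8 and Krt18, and the gene below was Fn1. Levels are given as normalized CPM, which are counts relative to the library total (CPM) after scaling by TMM, a method that aligns the bulk of genes between libraries. The test was the quasi-likelihood test of edgeR over 13497 genes. A gene is described as higher or lower where the adjusted p was under 0.05, and as called where the fold was also over 2.

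Sequences upstream of the human genes are shown for the subunits whose levels differed in opposite directions, JUND and JUNB, for FOSB, the Fos family gene that differed, and for EGR1, because CREB/ATF and SRF sites are the known entry points of immediate early signals. They are the 250 bases before the gene start in RefSeq, build GRCh38.p14, written along the gene's strand, at chr19:18281623-18281872 (minus strand), chr19:12791236-12791485 (plus strand), chr19:45467746-45467995 (plus strand) and chr5:138465229-138465478 (plus strand). Capitals mark TGACG, the core of the cAMP response element, on either strand, and in EGR1 also the CArG box.
JUND: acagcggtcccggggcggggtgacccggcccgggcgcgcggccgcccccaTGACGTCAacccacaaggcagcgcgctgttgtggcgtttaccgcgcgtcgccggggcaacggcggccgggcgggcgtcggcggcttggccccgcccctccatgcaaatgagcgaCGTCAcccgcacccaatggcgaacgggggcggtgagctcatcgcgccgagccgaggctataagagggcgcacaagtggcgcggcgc
JUNB: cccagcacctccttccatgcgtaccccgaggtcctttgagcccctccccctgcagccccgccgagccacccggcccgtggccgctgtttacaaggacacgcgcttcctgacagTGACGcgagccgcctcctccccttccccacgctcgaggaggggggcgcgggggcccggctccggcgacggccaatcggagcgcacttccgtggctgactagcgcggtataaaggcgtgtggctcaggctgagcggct
FOSB: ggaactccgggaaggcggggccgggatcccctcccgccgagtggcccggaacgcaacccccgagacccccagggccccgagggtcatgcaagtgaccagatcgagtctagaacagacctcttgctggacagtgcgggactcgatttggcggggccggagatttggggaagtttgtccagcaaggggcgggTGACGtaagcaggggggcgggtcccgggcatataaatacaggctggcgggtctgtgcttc
EGR1: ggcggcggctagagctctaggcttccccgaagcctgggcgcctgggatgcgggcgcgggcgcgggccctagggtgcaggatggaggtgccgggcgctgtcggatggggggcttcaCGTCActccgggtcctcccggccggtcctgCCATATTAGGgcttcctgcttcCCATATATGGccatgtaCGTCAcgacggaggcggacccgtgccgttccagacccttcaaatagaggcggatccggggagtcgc
The motif TGACG was found in the windows of 8 of the 9 genes with an entry, against 21.2% of all 35116 windows of this length searched on both strands. Those 8 were JUN, JUNB, JUND, FOS, FOSB, FOSL2, EGR1 and IER2, so genes that were higher, lower and similar in KD cells all held it. ATF3 has 2 windows, neither with a match, and FOSL1 was without an entry. Within these windows, the full palindrome TGACGTCA, which overlaps TGACG, lay only in JUND among these genes (1.65% of all windows). CArG boxes lay only in the window of EGR1, which holds 2 of them (1.16% of all windows). The AP-1 site TGACTCA was found in the windows of 0 of the 9 genes (4.20% of all windows). Only these 250 bases and fixed patterns were searched, so sites farther upstream or with other letters were not looked for. These matches describe letters in the human genome and not bound sites. The table's names follow mouse and not human naming, so these windows may not be those of the genes counted.

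Among the Jun family, Jund was higher and Junb lower in LINC00115 KD cells, while Jun differed by less than the spread between libraries. JUND is the family member that most resting cells keep at a high level, and JUNB is a growth-factor-induced member that can oppose JUN. Jund measured 157, 154 and 155 normalized CPM in the WT libraries and 334, 291 and 329 in the KD libraries. The groups were far apart, with the KD replicate 2 library the lowest of its group. The fold was 2.05 (log2 fold change 1.04, standard error 0.04, adjusted p = 9.75e-22, edgeR), and Jund was called, but its 95% interval of 0.95 to 1.12 on the log2 scale spans the fold of 2. With upper quartile scaling the log2 fold change was 0.9952, under that fold. In bulk RNA, fewer cells of a type and less RNA per cell cannot be told apart.

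Junb measured 228, 213 and 218 normalized CPM in the WT libraries and 152, 142 and 163 in the KD libraries. The groups did not overlap, and WT cells were 1.44-fold higher (log2 fold change −0.53, standard error 0.04, adjusted p = 2.69e-13, edgeR), short of the fold of 2. Jun, the founding subunit and a substrate of JNK, measured 153, 146 and 146 normalized CPM in WT and 148, 143 and 153 in KD libraries. The groups overlapped, and the 95% interval of the log2 fold change, −0.08 to 0.08, leaves room only for differences smaller than those of Jund and Junb (adjusted p = 0.949, edgeR).

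The make-up of the Jun family counts differed accordingly, and these shares do not depend on the scaling between libraries. Jund took 29.7% ± 0.39 of the family's counts in WT libraries and 51.4% ± 1.12 in KD libraries (SD, n = 3 each). Junb took 42.0% ± 0.39 and 24.6% ± 0.63, and Jun 28.4% ± 0.24 and 24.0% ± 0.78. Per library, the exact 95% binomial interval of the Jund share, which covers counting error only, was narrower than these group differences, for example 29.2% (28.6 to 29.9) in the WT replicate 1 library and 50.6% (49.9 to 51.2) in the KD replicate 2 library. There were 0.691, 0.722 and 0.709 Jund counts for each Junb count in WT libraries and 2.20, 2.06 and 2.02 in KD libraries, so the order of the pair by counts was turned round in every KD library. Counts are not per length, so shares are compared between libraries and not between genes. The summed Jun family level was 523 ± 13.6 normalized CPM in WT and 619 ± 37.4 in KD libraries.

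**Figure D1:**
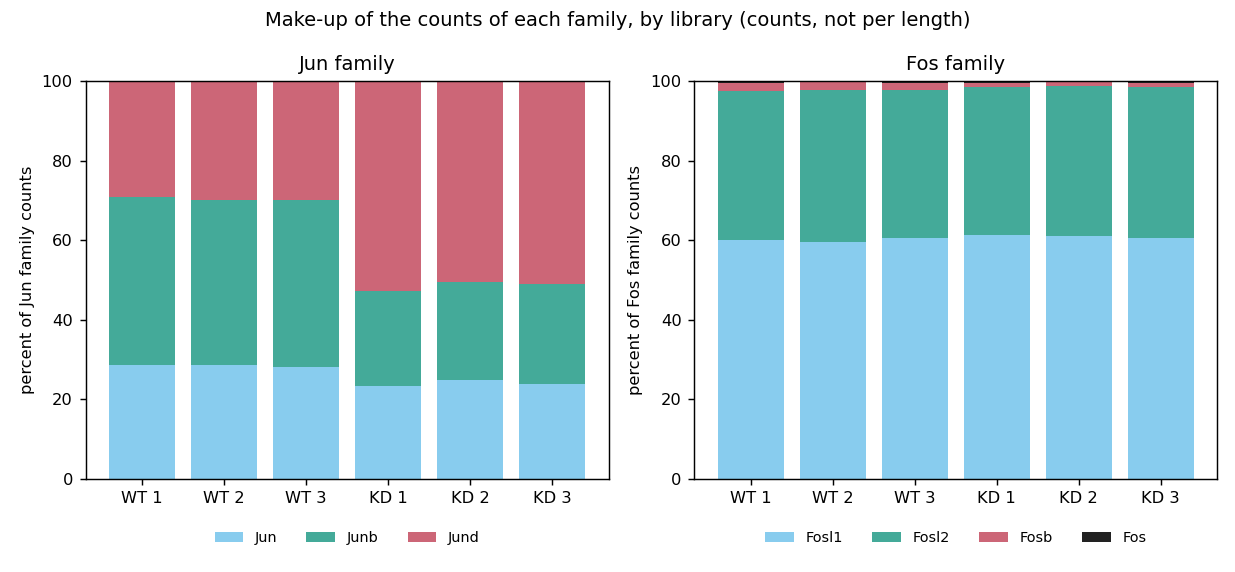
Bars show the percent of the Jun family counts (left) and of the Fos family counts (right) assigned to each gene in each of the 3 WT and 3 KD libraries. The Jund share is 29.2% to 30.0% in WT and 50.6% to 52.7% in KD libraries, while Fosl1 and Fosl2 keep near-equal shares of the Fos family in both groups.

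In the Fos family, Fosb was lower in KD cells and the others did not pass the test. Fosb, an inducible subunit, measured 11.997, 10.3 and 10.2 normalized CPM in the WT libraries and 5.92, 5.83 and 6.42 in the KD libraries. Every KD library lay below every WT library, by 1.79-fold in the fit (log2 fold change −0.84, standard error 0.13, adjusted p = 4.29e-07, edgeR), which is short of a call. Its share of the Fos family counts was 1.94% ± 0.15 in WT and 1.06% ± 0.04 in KD libraries (SD, n = 3 each). Fosl1 measured 341, 329 and 333 normalized CPM in WT and 357, 337 and 355 in KD libraries, with overlapping groups. Its log2 fold change of 0.06 had a 95% interval of −0.0041 to 0.13 (adjusted p = 0.0845, edgeR). The adjusted p of Fosl1 was 0.0162 without the KD replicate 2 library and 0.0272 without the WT replicate 1 library, at log2 fold changes of 0.10 and 0.08, so the test turns on single libraries while the size stays small. Over all alternatives that adjusted p ranged from 0.0162 to 1.

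Fosl2, which encodes FRA2, measured 211, 213 and 205 normalized CPM in WT and 218, 207 and 223 in KD libraries (log2 fold change 0.04, 95% interval −0.03 to 0.12, adjusted p = 0.279, edgeR). Fos itself, the archetype of a transiently induced gene, measured 2.71, 1.72 and 2.43 normalized CPM in WT and 2.82, 1.72 and 2.34 in KD libraries. That is 65 to 102 counts in WT and 63 to 109 in KD libraries. The 2 sets of values overlapped almost entirely. The 95% interval of the log2 fold change of Fos, −0.54 to 0.55, leaves room for a difference of up to about 1.46-fold either way. Together, the Fos family summed to 557 ± 8.62 normalized CPM in WT and 574 ± 19.7 in KD libraries, and Fosl1 took 60.0% ± 0.56 and 60.9% ± 0.36 of its counts.

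Atf3 had the largest difference of the 10 genes in the fit. ATF3 is a stress-induced bZIP protein that pairs with JUN proteins and often represses its targets. It measured 23.4, 24.4 and 23.7 normalized CPM in the WT libraries and 55.6, 55.5 and 58.5 in the KD libraries. Both groups were tight and far apart, and the fold was 2.37 (log2 fold change 1.24, standard error 0.06, 95% interval 1.12 to 1.37, adjusted p = 4.32e-19, edgeR). Of all genes tested, 8.09% had a larger log2 fold change than Atf3 and 10.1% a larger one than Jund. The genes whose levels over the 6 libraries lay nearest to Atf3 were Chka and Pptc7, with root mean square differences of 0.0198 and 0.0269 on the centred log2 scale, and nearest to Jund was Zfp746 (0.0441), among 11622 genes compared. Chka encodes a choline kinase.

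Egr1 and Ier2, the members outside the bZIP class, were both higher in KD cells and neither was called. EGR1 is a zinc finger transcription factor known to be induced by SRF, and the CArG boxes in its window are shown above. It measured 21.3, 18.5 and 17.7 normalized CPM in WT and 31.9, 33.6 and 33.8 in KD libraries. The groups did not overlap, and the fold was 1.72 (log2 fold change 0.79, standard error 0.08, adjusted p = 3.87e-11, edgeR). IER2, a small nuclear protein of the early growth response, measured 41.4, 41.6 and 45.7 normalized CPM in WT and 61.2, 50.4 and 61.1 in KD libraries. The KD replicate 2 library lay nearest to the WT group without reaching it, and the fold was 1.34 (log2 fold change 0.42, standard error 0.06, adjusted p = 4.86e-07, edgeR).

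**Figure D2:**
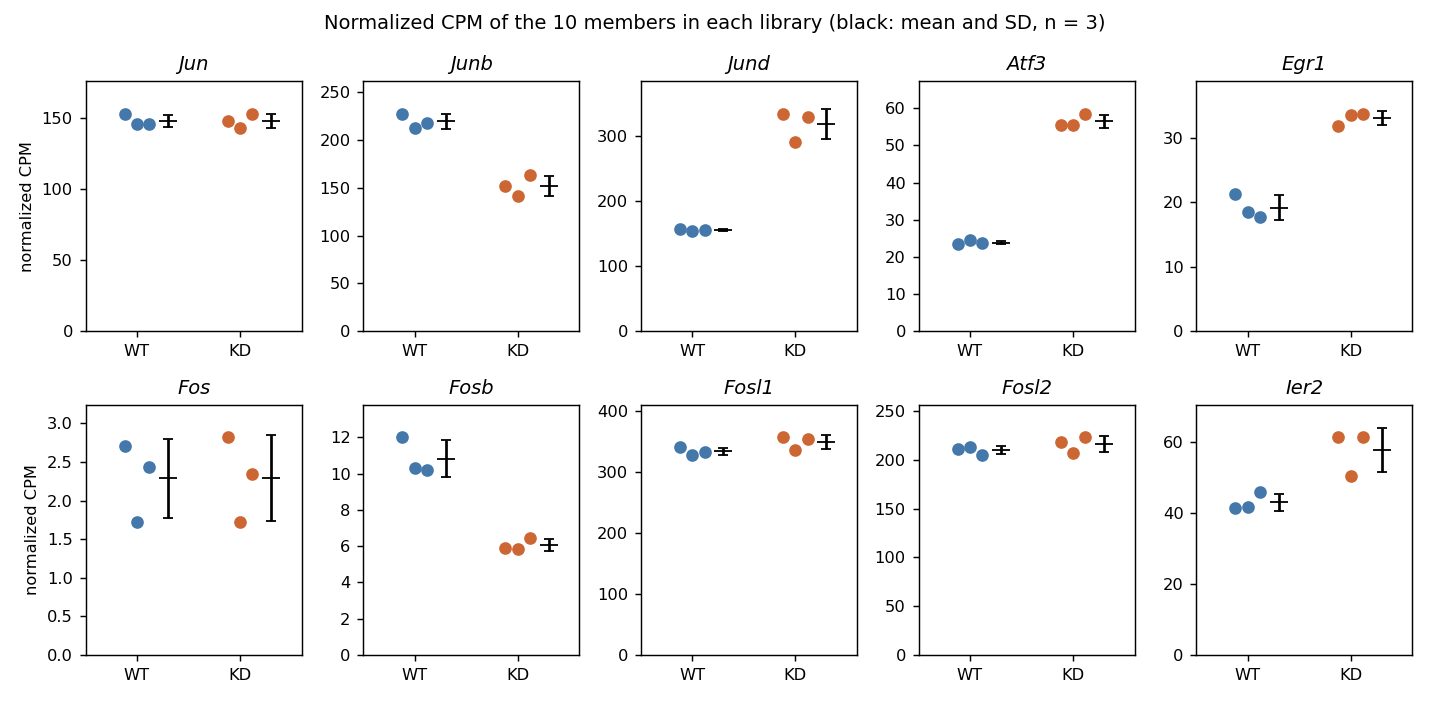
Points are normalized CPM (linear axes from 0) of each gene in the 3 WT (blue) and 3 KD (orange) libraries, with mean and SD in black. Jund, Atf3, Egr1 and Ier2 lie higher and Junb and Fosb lower in the KD libraries without overlap, and Jun, Fos, Fosl1 and Fosl2 overlap.

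By the adjusted p alone, 4 of the 10 genes were higher and 2 lower, against 36.7% of all genes tested in each direction and 73.4% in either. With the fold added, 2 were called higher and 0 lower, against 10.2% and 9.98% of all genes and 20.2% in either direction. Groups did not overlap for 6 of the 10 genes, with 4 above and 2 below, against 37.8% of all genes above, 37.8% below and 75.6% in either direction. The median log2 fold change was 0.05 over the 10 genes and −0.0061 over all genes tested. Counted in either direction, the 10 genes thus stood at or under the share of genes in general. In the KD replicate 2 library, 9 of the 10 genes (all but Egr1) had the lowest value of the 3 KD libraries, while 34.3% of all genes tested had theirs there. Without that library, log2 fold changes were 1.11 for Jund and 0.52 for Ier2, and the calls were the same.

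**Figure D3:**
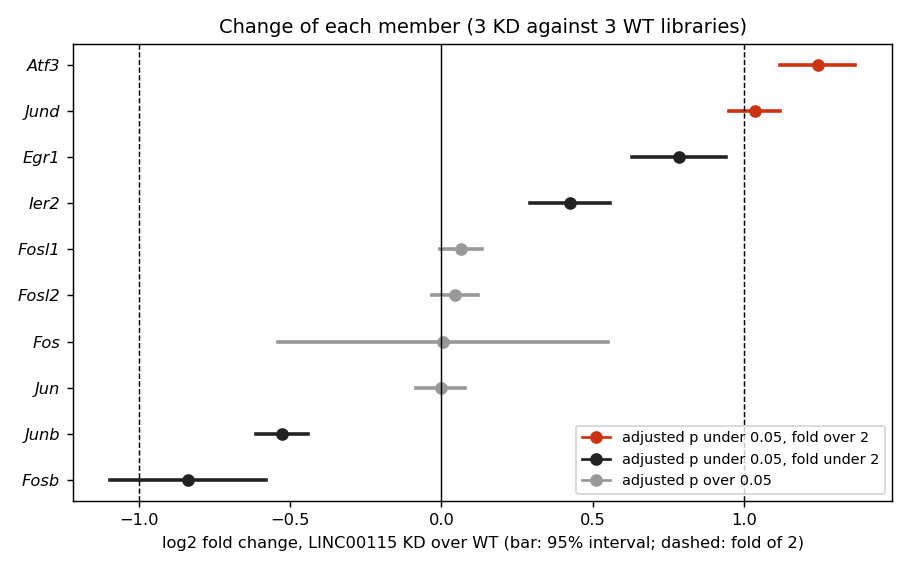
Points are log2 fold changes of KD over WT for each gene and bars their 95% intervals from edgeR's fit of 3 against 3 libraries, with dashed lines at a fold of 2 either way. Atf3 (1.24) and Jund (1.04) lie past the line, while Fosb (−0.84) and Junb (−0.53) are the lowest.

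A wider list of 40 other immediate early genes, of which 39 were tested, had 17 higher and 16 lower by the adjusted p, 4 called each way and a median log2 fold change of −0.04. The 4 called are 10.3% each way, near the 10.2% and 9.98% of all genes. The largest difference was that of Ccn2, a secreted matricellular protein and a target of YAP and SRF signaling, which measured 6.05, 6.17 and 6.75 normalized CPM in WT and 214, 204 and 214 in KD libraries, a fold of 33.3 (adjusted p = 1.59e-37, edgeR). Plk3, a serum-inducible polo-like kinase, rose 3.16-fold from 45.3 ± 2.23 to 143 ± 6.83 normalized CPM (SD, n = 3 each). Dusp2, a nuclear MAP kinase phosphatase, rose from 1.12 ± 0.40 to 3.42 ± 0.86 and Klf6, a zinc finger factor, from 163 ± 1.86 to 365 ± 3.74. The called genes lower in KD cells with enough counts were Egr3, Ier3 and Btg2. Egr3, a close relative of Egr1, fell from 9.35 ± 0.93 to 1.84 ± 0.14 normalized CPM (log2 fold change −2.34, standard error 0.17, adjusted p = 2.59e-14, edgeR). Ier3, a survival-related early gene, fell 3.43-fold from 653 ± 6.54 to 190 ± 14.0, and the antiproliferative gene Btg2 fell 2.78-fold. The fourth gene called lower was Npas4, with 2 to 29 counts. There were 1.79 to 2.34 Egr1 counts per Egr3 count in WT and 16.9 to 18.7 in KD libraries. Egr2, chosen after its values were seen, fell from 8.59 ± 1.88 to 4.66 ± 0.67 normalized CPM, with 1.96 to 2.85 Egr1 counts per Egr2 count in WT and 5.87 to 8.07 in KD libraries.

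Genes that feed signals into AP-1 were seldom called. Of 39 genes for MAP kinases, their upstream kinases, RAS and RAF proteins, SRF coactivators and ETS partners, 37 were tested, 11 were higher and 16 lower, and 0 were called higher and 1 lower, with a median log2 fold change of −0.07. By the adjusted p alone that is 73.0% of them, beside 73.4% of all genes, and by calls 0% higher and 2.70% lower, beside 10.2% and 9.98%. The gene called was Map3k1, which encodes MEKK1, an activator of the JNK and ERK pathways. It measured 75.5, 68.0 and 68.2 normalized CPM in WT and 33.7, 34.7 and 32.9 in KD libraries, which is −1.06 on the log2 scale (standard error 0.06, adjusted p = 5.33e-18, edgeR). The transcripts of kinases say nothing of their activity.

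Among 33 other bZIP genes, possible dimer partners or competitors, 27 were tested, of which 14 were higher, 7 lower, 5 called higher and 0 called lower. That is 18.5% and 0% called, beside 10.2% and 9.98% of all genes. Their median log2 fold change was 0.32. Atf5, a stress-regulated relative of Atf4, rose from 36.2 ± 1.85 to 89.7 ± 2.94 normalized CPM (2.48-fold, adjusted p = 1.86e-21, edgeR). Atf1, a CREB family member, rose 2.04-fold and Mafk, a small MAF protein, 2.03-fold. Batf2, also called higher, had under 100 counts in every library. Atf1 and Mafk lie close to the fold of 2, and with upper quartile scaling they were 0.99 and 0.98 on the log2 scale. Mafk was also under that fold without the WT replicate 2 library (0.9942) and without the KD replicate 3 library (0.9871).

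A list of 46 genes known as AP-1 targets, 44 of them tested, had 21 higher and 17 lower, 7 called each way and a median log2 fold change of 0.03. The 7 called are 15.9% each way, beside 10.2% higher and 9.98% lower among all genes. The metalloproteinase genes Mmp9 and Mmp1b, which degrade extracellular matrix, fell 5.87-fold and 5.68-fold. Mmp9 measured 149, 147 and 149 normalized CPM in WT and 25.3, 26.6 and 24.1 in KD libraries. Mmp1b has a close paralog, Mmp1a, and reads may be split between them. Mmp1a had 53 to 70 counts in WT and 25 to 55 in KD libraries, with overlapping groups (log2 fold change −0.62, adjusted p = 0.116, edgeR). Tnc, the matrix protein tenascin C, fell from 39.1 ± 3.26 to 7.85 ± 0.92, Vegfa, an angiogenic growth factor, from 540 ± 38.8 to 161 ± 6.24, and Itga2, a collagen-binding integrin subunit, from 196 ± 17.8 to 75.1 ± 1.47 normalized CPM. The other way, Ccl2, a monocyte chemokine, rose from 138 ± 10.1 to 641 ± 14.9 and Mt2, a metallothionein, from 219 ± 10.1 to 752 ± 34.5 normalized CPM. Serpinb2, the plasminogen activator inhibitor 2, rose 2.61-fold, and Sphk1, a sphingosine kinase, 10.5-fold from 1.599 ± 0.44 to 16.9 ± 2.22. Timp3, a metalloproteinase inhibitor, had 1, 7 and 9 counts in WT and 135, 188 and 206 in KD libraries. The other called genes of the list were Il6 and Lox, both higher, and Il11 and Mmp3, both lower.

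**Figure D4:**
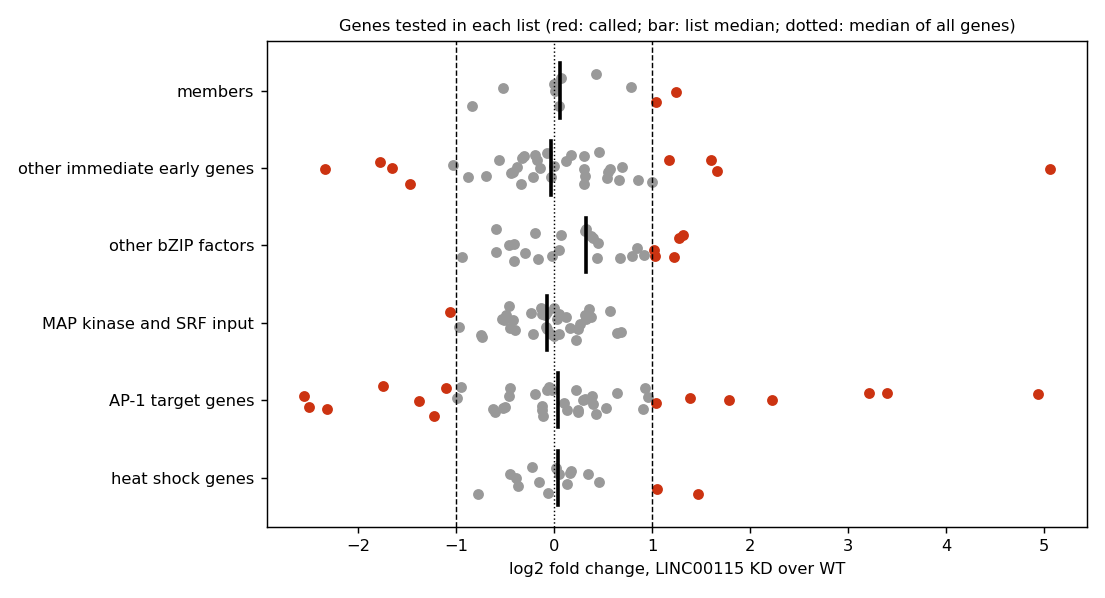
Each point is the log2 fold change of KD over WT of 1 tested gene, by list, with called genes in red, list medians as black bars and the median of all genes as a dotted line. Called genes lie on both sides among the immediate early genes (4 and 4) and AP-1 targets (7 and 7), and only on the higher side among the bZIP factors (5).

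Heat shock genes, which respond to stress in handling as many immediate early genes do, were measured beside these lists. Of 17, 16 were tested, with 7 higher, 5 lower, 2 called higher, 0 called lower and a median log2 fold change of 0.03. That is 12.5% called higher, beside 10.2% of all genes, and 75.0% past the adjusted p, beside 73.4%. The chaperone genes Hspb1 and Hspa8 were the ones called, at 2.76-fold and 2.06-fold, and Hspa8 was under a fold of 2 without the WT replicate 1 library (log2 fold change 0.98). Markers of other cell types were read beside the 37.8% of all genes tested above and 37.8% below without overlap. Of the markers tested, KD lay above and below WT for 10 and 0 of 10 in lung and 6 and 1 of 7 in kidney. It did so for 4 and 0 of 6 in leukocyte, 2 and 1 of 5 in endothelium and 0 and 3 of 4 in fibroblast. Several of the lung and kidney markers tested, such as Scgb1a1, Sftpc and Kap, had 0 counts in every WT library. They passed the count filter only through the KD libraries, so their direction was fixed in advance. The tallies that hold them cannot be weighed against the share of all genes. The fuller marker counts that follow also include genes with too few counts to be tested. All 12 lung epithelium markers were above the WT range in each KD library, with a summed level of 1.78 to 2.07 normalized CPM in WT and 74.3 to 84.6 in KD libraries, and 7 of them were at 0 counts in every WT library. Of 11 kidney tubule markers 7 were higher in the same way and 1, Cubn, lower (summed 16.8 to 19.6 and 41.0 to 45.2 normalized CPM), with Nphs1 at 0 to 1 counts. Of 12 leukocyte markers 4 were higher and 1 lower (summed 35.3 to 36.1 normalized CPM in WT and up to 111 in KD libraries, most of it S100a8), with Cd3e at 0 in every library and Ptprc at 5 to 13 counts. Of 9 endothelium markers 4 were higher and 1 lower (summed 1.56 to 1.89 and 58.2 to 61.1 normalized CPM), with Cdh5 at 5 to 14 counts in WT and 2136 to 2243 in KD libraries and Pecam1 at 6 to 19 in all 6. Of 9 fibroblast markers 1 was higher and 3 lower (summed 175 to 193 and 76.6 to 78.6 normalized CPM), with Pdgfra at 177 ± 9.92 and 74.5 ± 1.39 making up nearly all of the sum. The part of these markers and of heat shock in the differences of the AP-1 genes was not tested. The labels do not state whether the WT libraries carry a vector.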

How the data were processed

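RNA of 3 LINC00115 KD and 3 WT libraries was sequenced, and the authors deposited whole-number read counts per gene for 22989 genes, without normalization. Adapters were trimmed and reads mapped with HISAT2, to hg19 per the study's methods and to hg38 per the submitters' processing notes, which also name featureCounts and DESeq2. How strand was used, and which annotation, is not given in the sources used here, so counts of overlapping genes and paralogs are uncertain. Columns were assigned by their names, and 0 columns of values were left out.

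Here, counts were analysed in R 4.3.3 with edgeR 4.0.16 (filterByExpr with a minimum count of 10 and a minimum total of 15, TMM, quasi-likelihood test, Benjamini-Hochberg adjustment over 13497 genes, model with the group only). Standard errors are the size of the log2 fold change over the square root of F. Total counts were 36979221 to 38799331, and intervals of shares cover counting error only. On simulated counts (22989 genes, 13491 tested), 199 of 200 changed genes and 0 unchanged genes were called for the comparison of KD with WT. Only those 200 genes were changed in the simulation, whereas 73.4% of the genes tested in the data passed the adjusted p. The simulation therefore cannot give the error rate of the calls made here, including those of genes near the fold threshold. DESeq2 1.42.0 served as an alternative. The genes examined, the lists and the tests were chosen with earlier results of these data known, and the promoter motifs after the values were seen. Named are all 10 genes and, from each list, up to 5 called genes each way with the largest change among those whose groups did not overlap and whose higher group had 100 or more counts per library. Genes named beyond this were chosen after their values were seen. Nearest genes had the smallest root mean square difference of centred log2 normalized CPM. Some items are not reported here.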

Additional observations from a re-analysis of the deposited data

How the results depend on the processing

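Atf3 was called under every alternative tried, with log2 fold changes of 1.2029 to 1.27, and Jund under all but upper quartile scaling (0.9952), where 1 of the 10 genes was called higher. Upper quartile scaling shifted the median of all genes to −0.05. Without a threshold on the fold, 4 of the 10 genes were higher, adding Egr1 (0.79) and Ier2 (0.42), and 2 were lower, Fosb (−0.84) and Junb (−0.53). Without that threshold the counts were 17 higher and 16 lower for other immediate early genes, 14 and 7 for other bZIP factors, 11 and 16 for MAP kinase and SRF input, and 21 and 17 for AP-1 target genes. Upper quartile scaling left 3 bZIP factors called higher and 2 MAP kinase and SRF genes called lower. With each library left out in turn, 0 to 1 bZIP factors were called lower, 1 without the KD replicate 3 library. The signs of genes near 0 were not stable. The log2 fold change of Fos was −0.0372 with upper quartile and −0.0156 with library-size scaling, and −0.16 to 0.18 with a library left out. That of Jun was 0.0052 with DESeq2's size factors and 0.0052 with its Wald test, and −0.0214 to 0.031 with a library left out. Junb and Ier2 kept an adjusted p under 0.05 in all alternatives but the test against a fold change of 1.5. The cause of these differences was not tested. Libraries of the same replicate number showed no sign of being paired, though the labels do not say whether they were. Correlations across genes of same-numbered deviations were 0.0135, −0.0194 and −0.0202, and not every library correlated best with its own number. With a replicate block, 1360 genes were called higher and 1316 lower, and log2 fold changes were 1.24 for Atf3 and 1.03 for Jund.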

Other observations

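A few further bZIP genes and SRF partners are given here, all chosen after their values were seen. Atf4, the central factor of the integrated stress response, measured 356, 330 and 356 normalized CPM in WT and 654, 652 and 660 in KD libraries, which is 0.92 on the log2 scale (standard error 0.03, adjusted p = 8.43e-23, edgeR), short of a call. Cebpd and Cebpb, inflammatory C/EBP factors, were also higher (log2 fold changes 0.84 and 0.44), and Jdp2, a JUN dimerization protein that represses AP-1, was higher at 0.67. Nfe2l2, which encodes the antioxidant factor NRF2, was lower at −0.41, and Atf2, a partner of JUN, at −0.60. Srf, the factor that binds CArG boxes, rose from 68.0 ± 2.73 to 123 ± 7.91 normalized CPM (log2 fold change 0.85, adjusted p = 2.56e-17, edgeR), while its ETS partners went both ways, with Elk1 at −0.75 and Elk4 at 0.64.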
